A study of Homo sapiens with 6 samples.

Results

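The ERVK family comprises endogenous retroviruses related to the betaretroviruses, and its copies in SW480 cells were examined locus by locus. A copy was included when its transposable element (TE) annotation named the family ERVK and it was listed with RNA in at least 1 of 6 libraries. This gave 2684 ERVK loci of 723309 TE loci in all, counting the classes LTR, LINE, SINE and DNA on either strand. Fragments on the strand of the element itself (own strand) were found at 1537 of them, and 1147 were listed on the opposite strand only. SW480 is an established human colon adenocarcinoma line. The control cells carried the lentiviral construct pLENTI CMV Clover, which expresses a fluorescent protein (Clover, 3 libraries). The compared cells carried pLENTI CMV Z18trunc, which expresses ZC3H18, a factor of nuclear RNA surveillance, in truncated form (Z18trunc, 3 libraries). Both groups were transduced with lentivirus, selected with puromycin and kept in selection antibiotics, the CMV promoter drove either insert, and the cells' own ZC3H18 gene was left in place. The study describes the lines as made in biological triplicate, and polyadenylated RNA was sequenced from each.

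An intact retroviral insertion (provirus) holds the genes gag, pro, pol and env between a pair of long terminal repeats (LTRs). The 5′ LTR carries the promoter and the 3′ LTR the signal for polyadenylation, and most copies in the genome are single LTRs left after recombination between the pair. Reverse transcription starts from a host tRNA bound just after the 5′ LTR, and the K in the family's name stands for lysine tRNA. ERVK copies are divided into the groups HML-1 to HML-10. HML-2 holds the youngest human insertions, whose internal part is annotated as HERVK-int between LTR5 copies. ZC3H18 belongs to nuclear complexes that bring polyadenylated and capped RNA to the exosome for degradation.

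The sequences of the loci on which the results turn are shown first, read from the hg38 genome on the strand of the element. The next windows lie where the 5′ LTR meets the internal part, which is where a tRNA binding site is expected, with TGGTGC in capitals. These letters do not tell which tRNA binds, and a match to the lysine tRNA was not tested.
HERVK3-int in ERVK3-1, chr19:58306098-58306127, plus strand: gacaagTGGTGCccgaccagggacctgaac
HERVK-int, chr3:101692858-101692887, plus strand: ttcatcTGGTGCccaacgtggaggcttttc
HERVK-int, chr1:155634852-155634881, minus strand: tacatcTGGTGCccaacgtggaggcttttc
HERVK22-int, chr2:71388641-71388670, plus strand: agcagcTGGTGCccctcgtgaggaacactg

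The motif TGGNGC on the element's strand was present in 63 of 89 such 90-base junctions between an ERVK LTR and an internal part (70.8%). It was present in 23.7% of the first 90 bases around the start of all 539 ERVK internal pieces and in 12.6% of 12115 internal pieces of other LTR families. On the reverse strand the shares were 3.37%, 5.01% and 5.84%.

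The provirus in the gene ERVK3-1 supplied the 1 ERVK locus that passed the test between groups. In the canonical transcript of GENCODE 44, an intron of 5949 bases runs through this provirus, from chr19:58306217 to chr19:58312165. Both splice sites lie inside HERVK3-int pieces. The first bases of the intron (GT) and its last bases (AG) are in capitals.
Donor, chr19:58306202-58306231, plus strand: ggcggagaatataagGTcagttccctgaga
Acceptor, chr19:58312151-58312180, plus strand: cttgtgtttttacAGgagatggacaaaccg
The called locus lies between them.

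LTR sequences were examined for AATAAA, the hexamer of the polyadenylation signal, since an LTR can both start and end a transcript. The 3′ LTR of the ERVK3-1 provirus (LTR3, 428 bases) held 1 copy, whereas its 5′ LTR (431 bases, 93.2% identical to it) held 0. The pair of MER11D LTRs on chromosome 2 were 96.4% identical and held 2 copies each. The pair of LTR5_Hs copies around the HERVK-int provirus on chromosome 3 were 98.4% identical and held 1 each. AATAAA is in capitals.
LTR3, chr19:58315113-58315142, plus strand: ttcactctacctAATAAAtatgaagggctg
MER11D 5′ LTR, chr2:170618674-170618733, minus strand: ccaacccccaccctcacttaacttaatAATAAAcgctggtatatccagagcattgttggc
MER11D 3′ LTR, chr2:170615803-170615862, minus strand: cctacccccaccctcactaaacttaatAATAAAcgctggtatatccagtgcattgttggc

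The first 300 bases of the 5′ MER11D LTR also held TATAAA, the core of a TATA box. It is printed because this LTR had the most fragments of a provirus of which every piece was higher in Z18trunc, and capitals mark AATAAA and TATAAA.
MER11D 5′ LTR, chr2:170619151-170619450, minus strand: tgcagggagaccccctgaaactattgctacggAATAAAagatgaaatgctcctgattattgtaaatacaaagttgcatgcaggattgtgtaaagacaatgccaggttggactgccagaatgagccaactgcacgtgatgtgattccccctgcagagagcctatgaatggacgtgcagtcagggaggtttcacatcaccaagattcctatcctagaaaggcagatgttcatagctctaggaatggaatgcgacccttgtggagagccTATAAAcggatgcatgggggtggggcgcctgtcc
Of 1804 ERVK LTR loci of 400 to 1100 bases, 92.0% held AATAAA and 46.4% held TATAAA on their own strand. Of 23120 LTR-part loci of other families in that length range the shares were 50.7% and 26.1%. On the reverse strand AATAAA was in 49.6% of the ERVK and 18.3% of the other loci, and TATAAA in 20.1% and 19.8%. Subfamilies differed in these shares. Of 64 MER11D loci 93.8% held TATAAA and of 291 LTR5_Hs loci 69.8% did, against 0 of 14 LTR3 loci. A match describes the letters only.

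Aligned fragments ranged from 18226033 to 22463310 per library, and ERVK loci took between 0.0288% and 0.0341% of them on their own strand, or 5514 to 7150 fragments. A count of 0 in 1 library allows up to 3 counts, which is 0.134 to 0.165 counts per 1000000 aligned fragments (CPM), and this limit covers counting error only. ZC3H18 was measured at 57.2 ± 5.39 TPM in Clover against 763 ± 31.2 TPM in Z18trunc (SD over 3 libraries each), and changed by 3.72 in log2(TPM + 1) (SE 0.09, limma adjusted p = 3.21e-05), where 0.015% of 13300 genes were called. Of 8 colon epithelial markers 6 had a mean of at least 1 TPM, with EPCAM, KRT8, KRT18, CDX2, VIL1 and CDH1 present and LGR5 and CEACAM5 under 1 TPM. All 4 leukocyte markers were under 1 TPM, as were 3 of 4 fibroblast and 3 of 5 melanocytic markers.

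In both groups a small number of loci gave most of the ERVK RNA. The median own-strand locus had 2 fragments over the 6 libraries, 696 loci were seen in 1 library and 203 in all 6. The locus with the most fragments held 12.9% of all ERVK CPM, the first 5 held 34.8% and the first 12 held 50.3%. The 134 loci with at least 30 counts, of which 35 were internal parts and 99 were LTRs, held 85.4%. Of the estimated fragments at ERVK loci 67.8% came from uniquely mapped reads, compared with 70.4% at other LTR families. The remainder had been divided among similar copies by the authors' software, so values of young copies are uncertain.

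The groups with the most fragments in Clover were HML-3 (76.7 ± 7.94 CPM), HML-4 (60.4 ± 2.63), HML-6 (55.3 ± 4.87) and HML-2 (47.1 ± 0.22; SD, n = 3 each). The SDs of HML-4 and HML-6 overlapped. HML-8 followed with 23.8 ± 0.72 CPM, HML-7 with 17.4 ± 1.89 CPM and HML-5 with 9.79 ± 1.83 CPM, while HML-1, HML-9 and HML-10 were under 3 CPM. Among internal parts HERVK9-int of HML-3 had 49.0 ± 8.98 CPM over 132 loci, followed by HERVK3-int of HML-6 with 25.9 ± 3.51 CPM over 35 loci. HERVK-int of HML-2 had 3.85 ± 0.64 CPM over 79 loci. Most HML-2 fragments came from its LTRs, LTR5_Hs with 20.4 ± 0.47 CPM, LTR5B with 12.2 ± 0.29 CPM and LTR5A with 10.6 ± 1.21 CPM (SD, n = 3 each).

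To ask whether truncated ZC3H18 changed the amount of ERVK RNA, own-strand fragments were summed per library. All ERVK loci together had 299.8, 288.2 and 298.7 CPM in Clover and 312.2, 328.2 and 340.6 CPM in Z18trunc. The groups did not overlap, and the log2 ratio of the means was 0.15 (exact two-sided permutation p = 0.1, the smallest that 3 against 3 libraries allow), but per TE count of either strand, which removes a shift of all TE RNA, it was -0.03. In bulk libraries, more cells with an RNA and more RNA per cell cannot be told apart. Other LTR families, at 3846 ± 52.8 CPM in Clover and 4477 ± 186 CPM in Z18trunc (SD over 3 libraries each), had a log2 ratio of 0.22. The log2 of ERVK over other LTR families was -3.70 ± 0.03 in Clover against -3.78 ± 0.03 in Z18trunc (SD over 3 libraries each), and differed by -0.07 without overlap (exact permutation p = 0.1). ERVK RNA was thus a smaller part of LTR RNA in each Z18trunc library than in any Clover library. Without the 5 most abundant ERVK loci the difference was -0.03, with overlap (exact permutation p = 0.2).

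Internal parts and LTRs differed. Internal parts had 107.0, 83.7 and 99.8 CPM in Clover and 119.6, 121.0 and 136.0 CPM in Z18trunc, a log2 ratio of 0.37 without overlap (exact permutation p = 0.1), and 0.19 per TE count of either strand. ERVK LTRs had 192.8, 204.5 and 198.9 CPM in Clover and 192.6, 207.2 and 204.6 CPM in Z18trunc, with overlap and a log2 ratio of 0.02 (exact permutation p = 0.7), which was -0.16 per TE count of either strand. The log2 of internal parts over LTRs moved from -1.04 ± 0.22 to -0.68 ± 0.09 (SD over 3 libraries each), which is 0.36 higher without overlap (exact permutation p = 0.1). It was 0.35 with uniquely mapped counts and 0.43 without the 5 most abundant loci. Clover replicate 2 had the lowest ratio, and without it the difference was 0.24. The log2 of internal parts over LTRs differed by 0.44 among loci that overlap an annotated exon of the same strand and by 0.34 among loci that overlap none. An overlap of any length was counted here.

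**Figure D1:**
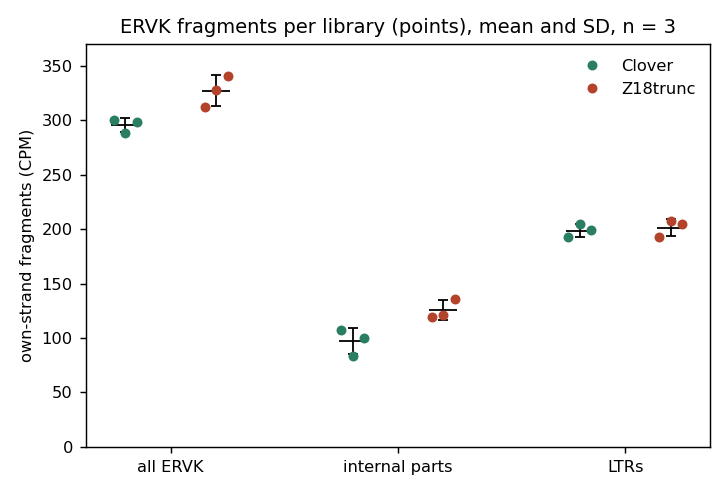
Own-strand fragments in counts per 1000000 aligned fragments (CPM, vertical axis) summed over all ERVK loci, their internal parts and their LTRs. Points are the 3 Clover (green) and 3 Z18trunc (red) libraries, and lines give the mean and SD. The Z18trunc points lie above the Clover points for all ERVK loci and for internal parts (log2 ratios 0.15 and 0.37, or -0.03 and 0.19 per TE count of either strand), while the LTR points overlap.

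This split was also present outside the family. In other LTR families, subfamilies named as internal had a log2 ratio of 0.36 and the remaining subfamilies 0.15, and the log2 of the former over the latter differed by 0.21 between groups (exact permutation p = 0.1). The log2 of ERVK internal parts over the internal subfamilies of other families differed by 0.02 with overlap (exact permutation p = 0.8). The log2 of ERVK LTRs over the remaining subfamilies of other families was -3.76 ± 0.05 in Clover against -3.89 ± 0.03 in Z18trunc (SD over 3 libraries each), and differed by -0.13 without overlap (exact permutation p = 0.1). The lower part taken by ERVK in Z18trunc thus lay with the sum of its LTRs, in which abundant loci weigh most. Over single tested loci the median log2 change was 0.11 for ERVK LTRs and 0.13 for loci of other families not named as internal. Within that sum, LTRs that overlap an exon of the same strand had a log2 ratio of -0.09 and the others 0.15, both with overlap between groups. Other families were not split by exon overlap.

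By position, the 759 own-strand loci outside genes had 119.2, 104.1 and 106.1 CPM in Clover and 123.6, 130.8 and 145.3 CPM in Z18trunc, a log2 ratio of 0.28 without overlap. The 295 loci inside a gene of the other strand only had 27.5, 32.2 and 30.5 CPM and 35.6, 37.5 and 36.5 CPM, also a log2 ratio of 0.28 without overlap. The 483 loci inside a gene of the same strand had 153.1, 151.9 and 162.1 CPM and 152.9, 159.9 and 158.8 CPM, with overlap and a log2 ratio of 0.01. Per TE count of either strand these log2 ratios were 0.10, 0.10 and -0.17, so the order was kept while the last turned negative. ERVK LTRs that overlap an exon of the same strand went from 112 ± 3.99 to 105 ± 3.73 CPM and other ERVK LTRs from 87.1 ± 4.90 to 96.6 ± 4.16 CPM (SD, n = 3 each), both with overlap. Internal parts were higher without overlap where they meet an exon (log2 ratio 0.34) and where they do not (0.49). Any length of overlap placed a locus in the exon class, so the classes do not separate exon RNA from other RNA. The most abundant internal locus, HERVK9-int chr8:126008824, was in the exon class with 2.3% of its length exonic. It had 35.0 CPM in Clover and 45.5 CPM in Z18trunc, of class means of 77.0 and 97.7 CPM.

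By group, the libraries did not overlap for HML-2, HML-7 and HML-8 and overlapped for the other 7. HML-7 went from 16.7, 19.5 and 15.97 CPM to 23.3, 22.4 and 22.8 CPM, a log2 ratio of 0.39, which was 0.22 per TE count of either strand. HML-2 went from 47.1, 47.0 and 47.4 CPM to 49.8, 51.4 and 52.2 CPM, a log2 ratio of 0.12, and HML-8 from 24.17, 24.20 and 22.95 CPM to 26.0, 27.9 and 26.4 CPM, a log2 ratio of 0.17. Per TE count of either strand those of HML-2 and HML-8 were -0.06 and -0.01. HML-3, HML-4 and HML-6 had log2 ratios of 0.23, -0.01 and 0.05. Without the 5 most abundant loci of the family these were 0.09, 0.21 and 0.19.

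Single loci were then compared by edgeR, with its quasi-likelihood test on estimated counts, with p-values adjusted over all 12453 tested TE loci by the Benjamini-Hochberg method. Of the 134 tested ERVK loci, 1 was higher in Z18trunc and 0 were lower at an adjusted p under 0.05, against 0.201% of all tested TE loci called in either direction, 0.177% called higher, and 0.57% of LTR loci called higher. Without adjustment, 13 ERVK loci were higher and 3 lower at a p under 0.05, where 8.17% of all TE loci and 10.5% of LTR loci were higher, and 1.77% and 1.95% lower. The unadjusted counts are close to these shares. Among the 35 internal loci 8 were higher and 0 lower at that threshold, and 32 had a log2 change above 0, with a median of 0.38. Of 449 internal loci of other LTR families 76 were higher and 4 lower, 350 were above 0 and the median was 0.34. Among the 99 LTR loci 5 were higher and 3 lower, 61 were above 0 and the median was 0.11. Of 1522 loci of other LTR families not named as internal 131 were higher and 34 lower, 921 were above 0 and the median was 0.13. Under TMM scaling, which moved the median over all tested TE loci from 0.17 to 0.0014, the medians of ERVK internal and LTR loci were 0.20 and -0.05. At an unadjusted p under 0.05, 4 ERVK loci were then higher and 9 lower. In simulated data for this comparison the locus fit found 26.8% of loci changed by 1 on the log2 scale and 65% of those changed by 2, over 12453 loci.

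**Figure D2:**
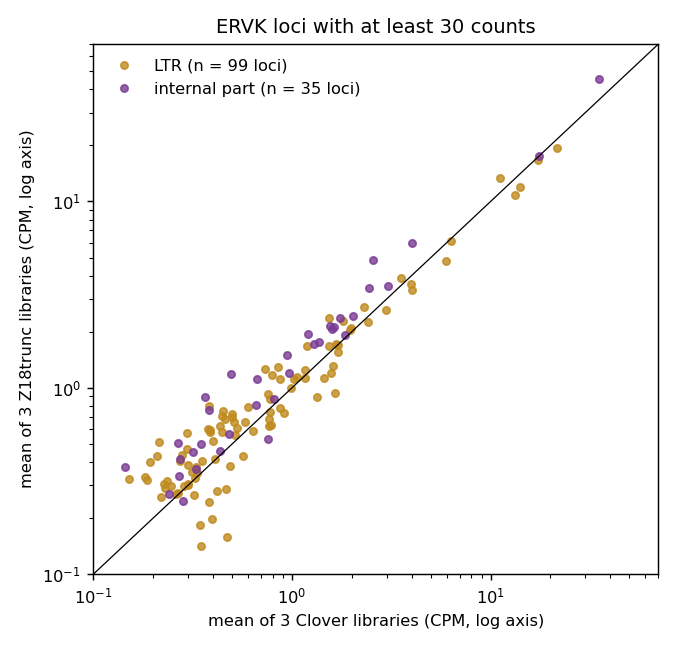
Mean own-strand fragments of the 134 ERVK loci with at least 30 counts, in CPM on log axes, for 3 Clover libraries (horizontal) and 3 Z18trunc libraries (vertical). Purple points are internal parts and ochre points LTRs, and the line marks equal means. Of the 35 internal loci 32 had a log2 change above 0, and of the 99 LTR loci 61 did. These signs hold at a library size of all aligned fragments, and the LTR median was below 0 under TMM scaling.

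Without a model, 20 of the 134 tested loci had all 3 Z18trunc CPM values above all Clover values and 5 had them below, where 12% of tested TE loci were above and 3.64% below. Of these, 10 of the higher and 0 of the lower loci were internal parts. The share of internal loci of other LTR families without overlap was not counted, so these counts have no like background. Over all 1537 own-strand loci, ranking the deposited FPKM in the same way gave 33 higher and 23 lower, or 2.15% and 1.5%, against 2.21% and 1.1% of LTR loci. The members were therefore near the background in both counts. Loci at or under the median sequence divergence of 7.3% from their consensus had a median log2 change of 0.19 (n = 68 loci) and the more diverged loci 0.28 (n = 66 loci).

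Fragments were next summed by subfamily. Of 42 ERVK subfamilies with RNA on their own strand, 33 had at least 30 counts, and 1 of these was called higher and 0 lower at an edgeR adjusted p under 0.05, against 1.89% of 898 TE subfamilies. Without adjustment, 7 were higher and 0 lower at a p under 0.05, where 24.6% of TE subfamilies were higher. All 9 tested internal subfamilies had a log2 change above 0, with a median of 0.58, while the 24 LTR subfamilies had a median of 0.12 and 14 of them were above 0. Of all 898 TE subfamilies 757 were above 0, with a median of 0.21. Internal subfamilies of other LTR families were not counted separately, so these signs have no like background. Summed over loci, those subfamilies had a log2 ratio of 0.36, beside 0.37 for ERVK internal parts. Under TMM scaling the medians of ERVK internal and LTR subfamilies were 0.38 and -0.07, and with scaling to opposite-strand counts 0.31 and -0.15. At an unadjusted p under 0.05, 3 ERVK subfamilies were higher and 6 lower under the former, and 1 and 7 under the latter. In simulated data the subfamily fit found 81.9% of subfamilies changed by 1 on the log2 scale, over 898 subfamilies.

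HERVK11-int, the internal part of HML-8, was the called subfamily. It had 5.39, 4.18 and 4.38 CPM in Clover and 7.37, 7.30 and 6.91 CPM in Z18trunc, which is 0.62 higher on the log2 scale (SE 0.15, edgeR adjusted p = 0.0461). Every Z18trunc library lay above every Clover library. A single locus gave 49.6% of these fragments, and 3 of the 32 own-strand loci of the subfamily reached 30 counts. The call was kept with uniquely mapped counts (edgeR adjusted p = 0.0249) and was lost under TMM scaling (adjusted p = 0.258) and without any 1 Clover library or Z18trunc replicate 2 (edgeR adjusted p from 0.0669 to 0.163). No LTR subfamily of HML-8 passed. MER11C went from 9.83 ± 0.99 to 11.2 ± 0.49 CPM, MER11B from 5.80 ± 0.32 to 5.13 ± 0.75 CPM and MER11A from 3.49 ± 0.06 to 3.25 ± 0.13 CPM (SD, n = 3 each), with edgeR adjusted p-values of 0.34, 0.456 and 0.725.

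The internal subfamilies next in order of p did not pass. HERVK11D-int of HML-7 had 4.16, 3.74 and 4.24 CPM in Clover and 6.67, 6.41 and 5.04 CPM in Z18trunc, a log2 change of 0.58 (edgeR adjusted p = 0.0648). HERVK13-int of HML-4 had 2.98, 2.46 and 2.19 CPM and 4.32, 3.73 and 3.86 CPM, a log2 change of 0.64 (edgeR adjusted p = 0.0648). Neither overlapped between groups. HERVK9-int had 58.2, 40.3 and 48.5 CPM and 57.8, 58.1 and 74.3 CPM, with overlap, since Clover replicate 1 lay between the Z18trunc values (log2 change 0.37, edgeR adjusted p = 0.0848). HERVK-int of HML-2 had 4.47, 3.19 and 3.88 CPM and 5.10, 4.94 and 6.27 CPM, without overlap (log2 change 0.50, edgeR adjusted p = 0.0942). HERVK22-int of HML-5 had a log2 change of 0.44 (edgeR adjusted p = 0.137), HERVK14-int of HML-1 0.61 (adjusted p = 0.205) and HERVK3-int of HML-6 0.21 (adjusted p = 0.241). HERVK14C-int of HML-9 had the highest estimate, 0.89, on 0.18 ± 0.09 against 0.34 ± 0.08 CPM (SD, n = 3 each, edgeR adjusted p = 0.327).

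Of the LTR subfamilies, MER11D of HML-7 had the smallest p, with 12.5, 15.8 and 11.7 CPM in Clover and 16.6, 16.03 and 17.8 CPM in Z18trunc (log2 change 0.33, edgeR adjusted p = 0.115). MER9a3 of HML-3 was lower without overlap, with 14.9, 16.05 and 15.1 CPM and 12.2, 13.8 and 14.1 CPM (log2 change -0.20, edgeR adjusted p = 0.293). The young LTR5_Hs went from 20.4 ± 0.47 to 22.3 ± 1.05 CPM (SD, n = 3 each; log2 change 0.12, edgeR adjusted p = 0.459). LTR13, the LTR of HML-4 and the ERVK subfamily with the most fragments among LTRs, had 48.0 ± 3.27 and 45.2 ± 4.17 CPM (SD, n = 3 each; log2 change -0.09, edgeR adjusted p = 0.582). The remaining 20 LTR subfamilies had edgeR adjusted p-values of at least 0.274.

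**Figure D3:**
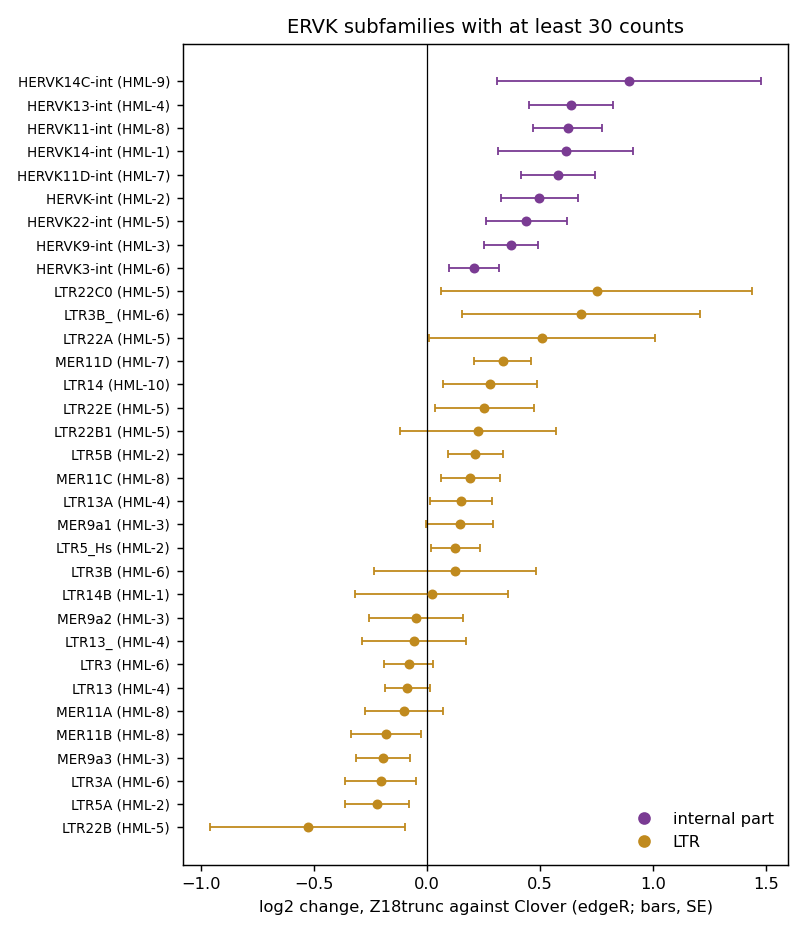
Log2 change of fragments in Z18trunc against Clover for the 33 ERVK subfamilies with at least 30 counts, by the edgeR fit with bars for the SE (horizontal axis, n = 3 libraries each). Purple points are internal parts and ochre points LTRs, with the HML group in brackets. All 9 internal subfamilies lie above 0 and the 24 LTR subfamilies lie on both sides. Internal subfamilies of other LTR families are not shown. With scaling to opposite-strand counts HERVK3-int lay below 0 (-0.08).

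ERVK3-1 on chromosome 19 is a spliced gene with exons inside and outside an HML-6 provirus. Its gene-level abundance was 77.8 ± 6.42 TPM in Clover and 81.6 ± 3.68 TPM in Z18trunc (SD, n = 3 each), with a log2 change of 0.07 in log2(TPM + 1) (limma adjusted p = 0.633). The provirus is annotated as 8 tested pieces on the plus strand, an LTR3 at either end and HERVK3-int between them. The piece chr19:58307323-58310256 had 2.85, 1.67 and 3.16 CPM in Clover and 4.12, 5.21 and 5.24 CPM in Z18trunc, and was the called locus (log2 change 0.91, SE 0.20, edgeR adjusted p = 0.038). All Z18trunc values lay above all Clover values. None of this piece (0%) lies in an exon of the canonical transcript, and 41.8% of it is exonic in some GENCODE 44 transcript. The call was kept with uniquely mapped counts (log2 change 0.86, edgeR adjusted p = 0.0389). It was lost under TMM scaling (0.74, edgeR adjusted p = 0.206) and without Clover replicate 2 (0.69, edgeR adjusted p = 0.234) or any 1 Z18trunc library (edgeR adjusted p from 0.0887 to 0.211).

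The neighbouring pieces on the 5′ side had the same order of libraries. HERVK3-int chr19:58306515-58307228, with 0% in a canonical exon, had 0.36, 0.31 and 0.82 CPM in Clover and 0.89, 0.99 and 1.67 CPM in Z18trunc (log2 change 1.26, SE 0.39, edgeR adjusted p = 0.237). HERVK3-int chr19:58306118-58306453, of which 29.5% is the canonical exon 2, had 0.31, 0.21 and 0.57 CPM and 0.77, 0.82 and 1.10 CPM (log2 change 1.30, SE 0.43, edgeR adjusted p = 0.274). Neither passed, and neither overlapped between groups.

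The other pieces, among them those that meet the later exons, had no such order. HERVK3-int chr19:58311249-58313278, which holds the canonical exon 3, had 15.9, 16.5 and 20.1 CPM in Clover and 17.4, 18.2 and 16.9 CPM in Z18trunc (log2 change -0.0007, edgeR adjusted p = 1). The 3′ LTR3 chr19:58314840-58315267, all of it in the last exon, had 16.9, 16.3 and 18.8 CPM and 16.2, 17.5 and 16.2 CPM (log2 change -0.06, edgeR adjusted p = 0.915). The 5′ LTR3 chr19:58305671-58306101, with 3.2% in a canonical exon, had 3.95, 4.25 and 3.71 CPM and 3.83, 3.43 and 3.61 CPM (log2 change -0.12, edgeR adjusted p = 0.875). HERVK3-int chr19:58313591-58314344, in the last intron, had 1.56, 1.83 and 1.48 CPM and 2.14, 2.47 and 1.71 CPM (log2 change 0.37, edgeR adjusted p = 0.658). HERVK3-int chr19:58314651-58314839, which is 48.7% canonical exon, had a log2 change of 0.06 (edgeR adjusted p = 0.962). All of these overlapped between groups. The difference between the pieces was not tested.

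**Figure D4:**
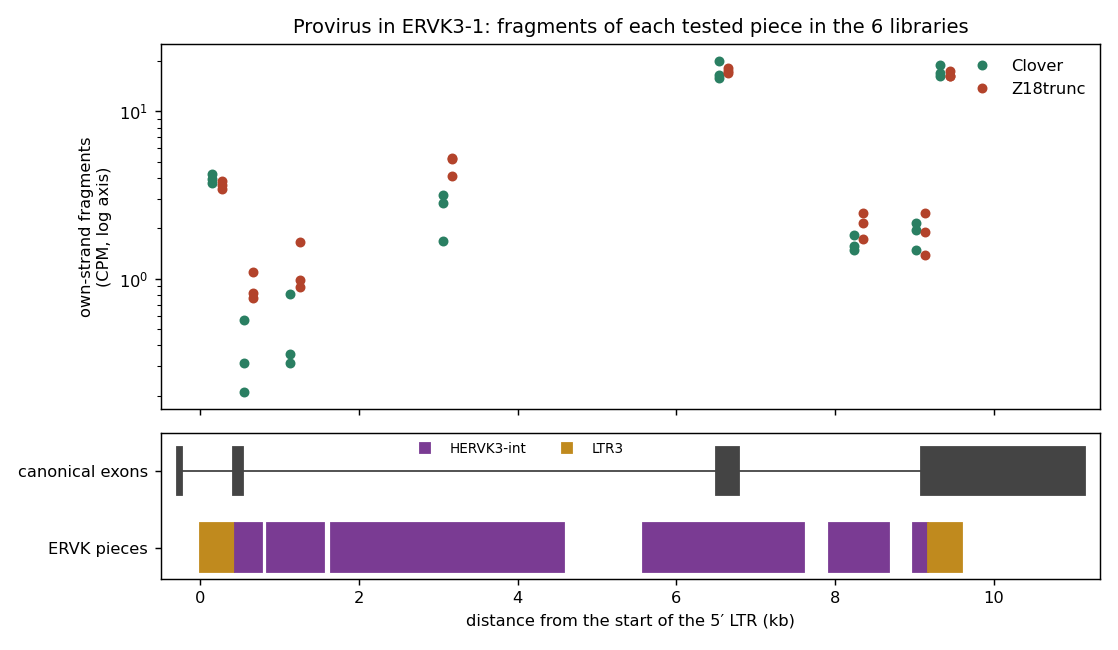
The provirus in ERVK3-1, with distance from the start of its 5′ LTR in kb (horizontal axis). The upper panel gives own-strand fragments of each tested piece in CPM on a log axis for the 3 Clover (green) and 3 Z18trunc (red) libraries, and the lower panel gives the exons of the canonical transcript and the annotated pieces. In the 3 HERVK3-int pieces before 5 kb all red points lie above the green points, whereas in the other 5 pieces the groups overlap.

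The HML-7 provirus chr2:170615660-170619450 lies on the minus strand inside MYO3B, a myosin gene on the other strand, and its 3 pieces overlap no exon of their strand. Together they had 15.8, 18.6 and 15.6 CPM in Clover and 22.4, 21.6 and 21.4 CPM in Z18trunc, without overlap. MYO3B itself was at 0.136 ± 0.04 TPM and 0.123 ± 0.02 TPM (SD, n = 3 each). The 5′ LTR, MER11D chr2:170618536-170619450, had 10.6, 12.85 and 9.92 CPM and 13.4, 12.91 and 13.9 CPM (log2 change 0.27, edgeR adjusted p = 0.498). With scaling to opposite-strand counts the log2 change of this LTR was -0.01. The internal HERVK11D-int chr2:170616558-170618535 had 4.11, 3.74 and 4.18 CPM and 6.62, 6.30 and 5.04 CPM (log2 change 0.58, SE 0.17, edgeR adjusted p = 0.186). The 3′ LTR, MER11D chr2:170615660-170616557, had 1.10, 2.05 and 1.46 CPM and 2.30, 2.34 and 2.43 CPM (log2 change 0.63, SE 0.25, edgeR adjusted p = 0.39). None of the 3 pieces passed, and each was higher in all Z18trunc libraries than in any Clover library. This insertion gave 99.2% of the fragments of its internal subfamily and its 5′ LTR 81.4% of those of MER11D. Per length, over all 6 libraries, the 5′ LTR had 13.4 CPM per kb, the internal part 2.53 and the 3′ LTR 2.17.

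HML-3 held the ERVK locus with the most fragments, HERVK9-int chr8:126008824-126013477, outside the gene spans of the deposited tables and with 2.3% in an exon of the noncoding LINC02964. It had 40.5, 30.1 and 34.4 CPM in Clover and 40.3, 40.4 and 56.0 CPM in Z18trunc (log2 change 0.38, SE 0.12, edgeR adjusted p = 0.248). Clover replicate 1 reached the lower Z18trunc values, and Z18trunc replicate 3 stood above all others. Without Z18trunc replicate 3 the log2 change was 0.21. This locus gave 71.6% of the HERVK9-int fragments. Its 3′ LTR, MER9a1 chr8:126013479-126013982, had 5.88, 7.84 and 5.18 CPM and 5.88, 5.03 and 7.41 CPM, with overlap (log2 change -0.04, edgeR adjusted p = 0.968).

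Of the LTRs that serve as exon sequence of host genes, MER9a3 chr19:38941327-38941835, on the minus strand, is 85.5% canonical exon of FBXO17, which encodes an F-box protein. It had 13.1, 14.0 and 12.8 CPM in Clover and 9.80, 11.4 and 11.2 CPM in Z18trunc, lower without overlap (log2 change -0.30, SE 0.13, edgeR adjusted p = 0.417). LTR13 chr19:46188940-46189933, on the minus strand, is 91.0% canonical exon of the noncoding IGFL2-AS1. It had 13.2, 15.3 and 13.8 CPM and 10.1, 13.1 and 12.7 CPM, also lower without overlap (log2 change -0.24, edgeR adjusted p = 0.558). LTR13 chr8:145055126-145056118, which is 91.1% canonical exon of C8orf33, had 19.5, 21.4 and 23.6 CPM and 18.3, 21.8 and 17.8 CPM, with overlap (log2 change -0.16, edgeR adjusted p = 0.728). LTR3A chr6:31510071-31510475 lies wholly in an exon of MICB, which encodes a ligand of the NKG2D receptor. It had 6.14, 5.54 and 6.21 CPM and 5.88, 4.85 and 3.62 CPM, with overlap (log2 change -0.32, edgeR adjusted p = 0.542). These 4 had estimates below 0, and none passed. Over all 44 tested ERVK LTR loci that overlap an exon of their strand, 24 estimates were above 0 and 20 below, with a median of 0.05.

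HML-2, the youngest group, gave low values at each of its proviruses. HERVK-int chr3:101692862-101698340 had 1.98, 1.25 and 1.54 CPM in Clover and 1.56, 1.83 and 2.78 CPM in Z18trunc (log2 change 0.36, SE 0.26, edgeR adjusted p = 0.701). The adjoining HERVK-int chr3:101698340-101699951 had 0.71, 0.75 and 0.97 CPM and 0.73, 0.82 and 1.05 CPM (log2 change 0.10, edgeR adjusted p = 0.959), which was -0.07 under TMM scaling. HERVK-int chr1:155629344-155634877, at 0.8% divergence the youngest of the named loci, had 0.36, 0 and 0.36 CPM and 0.54, 0.16 and 0.10 CPM (log2 change 0.16, SE 0.73, edgeR adjusted p = 0.967). The estimate of the last locus was -0.08 with scaling to opposite-strand counts, and 30.9% of its fragments were uniquely mapped. The groups overlapped at all 3 loci. Of the HML-2 LTRs, LTR5B chr20:3022940-3023895 in an intron of PTPRA, a receptor tyrosine phosphatase gene, had 4.01, 3.14 and 3.46 CPM and 3.36, 3.78 and 4.57 CPM (log2 change 0.14, edgeR adjusted p = 0.87), which was -0.04 under TMM scaling. LTR5A chr8:12565980-12567003 had 1.41, 1.72 and 1.80 CPM and 1.32, 0.62 and 0.87 CPM, lower without overlap (log2 change -0.79, SE 0.30, edgeR adjusted p = 0.37).

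The study names HERVK3-int and HERVK13-int copies on chromosome 16. It reports the HERVK3-int copy as increased in edited melanoma cells and shows HERVK13-int RNA bound by ZC3H18 in melanoma cells. An ERV at the HERVK13-int position is also reported as increased in cancer cell lines with ZC3H18 mutations and expressed in several cancer types. For SW480 cells the study reports higher LTR/ERV RNA with truncated ZC3H18, over loci chosen as changed and with a smaller effect size. The values below are for single copies in SW480 colon cancer cells, so they do not repeat those measurements. HERVK13-int chr16:2661288-2668373, on the minus strand in the noncoding gene ERVK13-1, had 1.29, 1.46 and 1.12 CPM in Clover and 2.18, 1.37 and 1.57 CPM in Z18trunc, with overlap (log2 change 0.41, SE 0.27, edgeR adjusted p = 0.658). The LTR13 on its 3′ side, chr16:2660262-2661287, had 0.27, 0.52 and 0.15 CPM and 0.40, 0.16 and 0.50 CPM (log2 change 0.17, edgeR adjusted p = 0.956), which was -0.10 with scaling to opposite-strand counts. The LTR13 on the 5′ side, chr16:2669525-2670537, had 0.04, 0.05 and 0.36 CPM and 0.36, 0.11 and 0.50 CPM (log2 change 1.15, SE 0.73, edgeR adjusted p = 0.643). The internal piece between, chr16:2668788-2669524, had 8 fragments in all and was not tested. ERVK13-1 was under the filter of 1 TPM, at 0.651 ± 0.06 and 0.708 ± 0.06 TPM (SD, n = 3 each). HERVK3-int chr16:35517050-35524053 had 1 fragment, in Clover replicate 1, so a difference was not detectable at this depth.

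When ERVK pieces on the same strand within 500 bp were joined, 178 clusters with an internal part were found, and 18 had a mean over 1 CPM. Of these 18, 4 were higher and 3 lower in Z18trunc without overlap and 11 overlapped, beside 12% and 3.64% of single tested TE loci without overlap. Beside the chromosome 2 provirus and the 5′ part of the ERVK3-1 provirus, the higher ones were an HML-8 cluster on chromosome 15 (5.39 ± 0.83 and 6.97 ± 0.69 CPM) and the HML-5 cluster chr12:100159365-100165461 (1.98 ± 0.65 and 3.02 ± 0.25 CPM; SD, n = 3 each). The HML-3 cluster chr19:38935164-38941835, which holds the FBXO17 exon, was lower (15.3 ± 0.33 and 13.2 ± 1.14 CPM). So was the HML-3 cluster chr7:45726259-45726885 (1.85 ± 0.17 and 1.31 ± 0.23 CPM). The last lower one was the HML-2 cluster chr8:12565087-12567003 (1.72 ± 0.26 and 1.03 ± 0.39 CPM, SD, n = 3 each). On chromosome 19 the mean of the LTRs went from 13.7 to 10.9 CPM and that of internal parts from 1.63 to 2.31 CPM. On chromosome 8 the LTR went from 1.64 to 0.93 CPM and internal parts from 0.073 to 0.093 CPM. In the chromosome 7 cluster the means of both parts were lower. The difference between parts was not tested within these clusters.

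**Figure D5:**
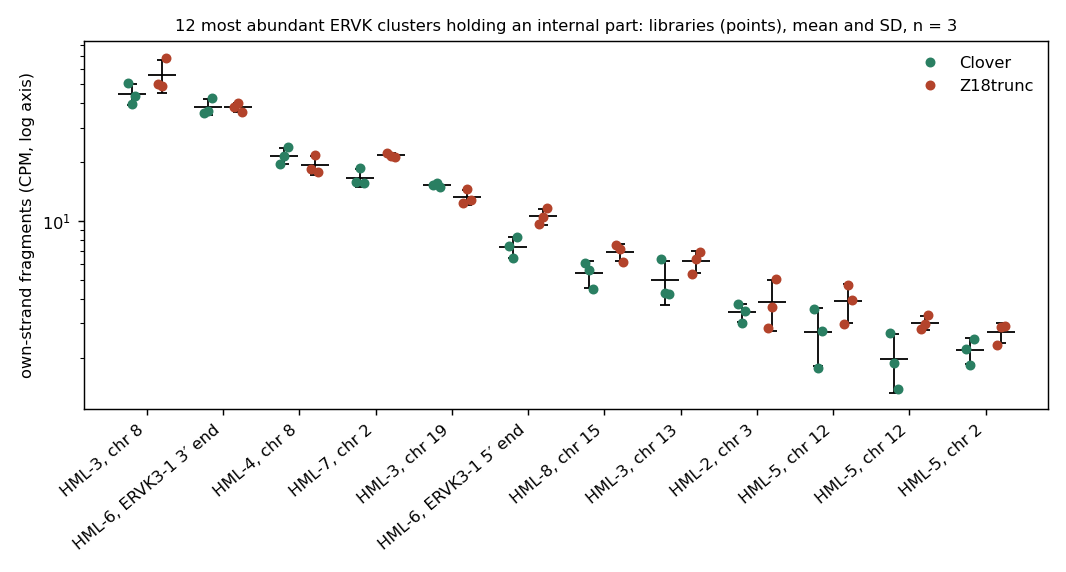
Own-strand fragments in CPM on a log axis for the 12 ERVK clusters with an internal part and the most fragments, named by HML group and chromosome. Points are the 3 Clover (green) and 3 Z18trunc (red) libraries, and lines give the mean and SD. The groups are apart for the HML-7 cluster on chromosome 2, the 5′ end of ERVK3-1, HML-8 on chromosome 15 and the second HML-5 cluster on chromosome 12 (Z18trunc higher), and for HML-3 on chromosome 19 (Z18trunc lower).

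Fragments opposite to the element came from 1569 loci. They had 169.8, 149.1 and 151.3 CPM in Clover and 164.4, 186.7 and 188.7 CPM in Z18trunc, with overlap and a log2 ratio of 0.20 (exact permutation p = 0.2). Opposite-strand fragments at internal parts had 17.7 ± 2.13 and 23.6 ± 2.01 CPM (SD over 3 libraries each) and a log2 ratio of 0.41 without overlap, and those at TE loci that overlap no exon had 0.28. The log2 of own-strand over opposite-strand fragments was 0.92 ± 0.09 and 0.86 ± 0.06 for all ERVK loci and 2.45 ± 0.10 and 2.41 ± 0.07 for internal parts (SD, n = 3 each), with overlap in both. A change of own-strand RNA relative to opposite-strand RNA was not detectable here.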

How the data were processed

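Polyadenylated RNA of 3 Clover and 3 Z18trunc SW480 libraries was sequenced paired-end from stranded libraries, and the titles of the samples gave group and replicate number. Submitters' processing notes name cutadapt 4.6 and hg38, and the study's methods name SQuIRE, with STAR mapping. The authors' deposited TE tables hold uniquely mapped counts and estimated counts, in which multiply mapped fragments had been divided among loci, and FPKM computed over the stretch covered in that library. The deposited gene tables hold TPM. Raw counts were not normalized by the authors. Library size was the aligned fragments, with no further scaling, and CPM is the count per 1000000 of these.

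Estimated counts on the element's own strand were rounded and tested with the quasi-likelihood fit of edgeR 4.0.16 in R 4.3.3, at 30 or more counts over the 6 libraries, with Benjamini-Hochberg adjustment over all TE loci or subfamilies and calls at 0.05. Genes with a mean of at least 1 TPM were fitted with limma 3.58.1, on log2(TPM + 1). For sums and ratios, two-sided exact permutation tests were run in scipy 1.17.1, with a smallest p of 0.1. Gene spans came from the deposited tables, exons from GENCODE 44 and overlaps from bedtools 2.31.1. TE starts were converted to 1-based positions. Motif searches left out chromosome 8. HML groups were assigned to subfamilies by name.

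The members, lists and tests were chosen with earlier results of these data known, and the splits by exon overlap were added after the values had been seen. Named loci were ERVK loci that passed, the 12 with the highest mean CPM, the 8 tested with the smallest p, the 3 HERVK-int loci with the highest mean CPM, and the HERVK3-int, HERVK13-int and adjoining LTR13 copies on chromosome 16. Named genes were ZC3H18 and those starting with ERVK, beside genes that overlap a named locus. The HERVK11-int loci on chromosome 15 are not reported singly here. Alternatives were TMM and opposite-strand scaling, DESeq2 1.42.0, other count minimums, uniquely mapped counts, a replicate block and the omission of each library. Fits were first checked on simulated data, in which 200 features had been changed. Pairs of libraries within a group differed by more than counting noise (chi-square per degree of freedom 1.63 to 1.94), and p-values measure the spread between these libraries. Intervals and limits cover counting error only, since there were no molecular identifiers.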

Additional observations from a re-analysis of the deposited data

How the results depend on the processing

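Scaling to all TE RNA turned the direction of several sums. Per TE count of either strand, log2 ratios were -0.0345 for all ERVK loci, -0.1601 for ERVK LTRs, -0.1662 for loci inside genes of the same strand, -0.062 for HML-2, -0.125 for HML-6 and -0.0051 for HML-8, while internal parts kept 0.1935. With uniquely mapped counts the loci inside genes of the same strand had -0.0021, and without the 5 most abundant ERVK loci HML-4 had 0.2061, HML-6 0.1896 and HML-3 0.0914. Leaving out 1 library gave -0.0018 to 0.051 for ERVK LTRs, -0.0038 to 0.0435 for loci inside genes of the same strand and -0.0703 to 0.0374 for HML-4. No sum lost its direction in this way for all ERVK loci (0.1154 to 0.1779) or internal parts (0.2796 to 0.452).

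The 1 called locus was lost, leaving 0 ERVK calls by edgeR, under TMM scaling, opposite-strand scaling and a minimum of 1 count, and there were 0 calls by DESeq2 with either set of size factors. At an unadjusted p under 0.05 edgeR gave 4 higher and 9 lower ERVK loci under TMM scaling and 3 and 10 under opposite-strand scaling. It gave 33 and 9 at a minimum of 1 count. DESeq2 gave 3 higher and 6 lower with its own size factors and 7 and 2 with aligned fragments. The main fit gave 13 and 3. Leaving out 1 library gave 0 to 1 calls, 0 of them without Clover replicate 2 or any Z18trunc library. The count of called subfamilies was 0 under TMM scaling, opposite-strand scaling, DESeq2 with its own size factors, a minimum of 100 counts and the replicate block. It was 2 with DESeq2 on aligned fragments, uniquely mapped counts and a minimum of 1 count, and 0 to 2 when 1 library was left out (2 without Z18trunc replicate 1 or 3, 0 without each of the others). At an unadjusted p under 0.05 the settings with 0 subfamilies called gave 1 to 8 higher ones. Lower ones numbered 6 under TMM scaling, 7 under opposite-strand scaling and 6 by DESeq2 with its own size factors, beside 3, 1 and 1 higher. The number of loci separated by rank of FPKM was 19 at 30 or more counts and 107 to 132 when 1 library was left out, where fewer libraries separate more loci, against 56 with all.

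The replicate numbers were not used to pair the samples in the main fits. Deviations of libraries with the same number correlated at -0.052 to -0.022 over 3820 loci. With 3 libraries a group, this cannot tell whether lines of the same number were handled together. With the replicate block, ERVK subfamily calls went from 1 to 0 and the locus call was kept. HERVK11-int then had an edgeR adjusted p of 0.0776.

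Among named loci and subfamilies that had not passed, opposite-strand scaling turned 15 estimates negative. They were MER11D chr2:170618536 (-0.0133), LTR5B chr20:3022940 (-0.1475), LTR13 chr16:2660262 (-0.0978), HERVK-int chr3:101698340 (-0.1892) and chr1:155629344 (-0.0781), and the subfamilies HERVK3-int (-0.0837), LTR13A (-0.1311), LTR14B (-0.2597), LTR22B1 (-0.0389), LTR22E (-0.0357), LTR3B (-0.1449), LTR5_Hs (-0.1579), LTR5B (-0.0744), MER11C (-0.0925) and MER9a1 (-0.1429). TMM scaling gave LTR5B chr20:3022940 -0.0391, HERVK-int chr3:101698340 -0.0738, LTR13A -0.0525, LTR14B -0.1861, LTR3B -0.0713, LTR5_Hs -0.077, MER11C -0.0101 and MER9a1 -0.0596. DESeq2 with its own size factors gave the same loci and subfamilies -0.0361, -0.075, -0.0577, -0.189, -0.0648, -0.0821, -0.016 and -0.0685, and also LTR13 chr16:2660262 -0.0072 and HERVK3-int -0.0023. Uniquely mapped counts gave HERVK-int chr3:101698340 -0.2581, LTR14B -0.0241 and MER9a2 0.0516, and the replicate block gave HERVK3-int chr19:58311249 0.005.

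Leaving out 1 library moved estimates across 0 for HERVK3-int chr19:58311249 (-0.0658 to 0.1098), MER9a1 chr8:126013479 (-0.1993 to 0.146), LTR13 chr16:2660262 (-0.1388 to 0.7147), HERVK-int chr3:101698340 (-0.0687 to 0.2517) and chr1:155629344 (-0.8866 to 0.5759). It did so for the subfamilies LTR13_ (-0.1688 to 0.0296), LTR14B (-0.2875 to 0.2886), LTR22B1 (-0.004 to 0.3699), LTR3B (-0.0743 to 0.3381), MER9a1 (-0.0124 to 0.2537) and MER9a2 (-0.2823 to 0.178). The cause was not tested. Of the alternatives for sums, ratios and counts of calls, 157 values kept their direction and side of the threshold or moved by less than the replicate spread, 30 moved and 13 were reversed. For named loci, subfamilies and genes 622 were kept, 57 reversed, 16 lost a call and 4 gained one. Depth limits the loci under 30 counts, and the 3 libraries a group limit every exact test to 0.1.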
